A study of Mus musculus with 46 samples.

Results

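The genes examined were 10 genes that encode exchangeable subunits of BAF, the mammalian SWI/SNF chromatin remodeler, out of 22380 protein-coding genes of GENCODE vM1 on build mm9. They were taken from a list of gene names. The 5 genes of the stem cell form were Smarca4, Smarcc1, Smarcd1, Arid1a and Actl6a, the 4 genes of the somatic form were Smarca2, Smarcc2, Smarcd3 and Arid1b, and Actl6b encodes the actin-like subunit of neuronal BAF. All 10 were found in the annotation. The measurement was ChIP-Seq of the histone variant H3.3 (16 libraries), of H3K4me3 (7 libraries) and of H3K36me3 (7 libraries).

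BAF uses the energy of ATP to slide and evict nucleosomes, and cells build different versions of it by swapping paralogous subunits. Embryonic stem cells assemble BAF around the ATPase BRG1, encoded by Smarca4, and lack the alternative ATPase BRM, encoded by Smarca2, while fibroblasts can use either. H3.3 is placed independently of DNA replication at promoters, enhancers and transcribed gene bodies, H3K4me3 marks active or poised promoters, and H3K36me3 accumulates over the bodies of transcribed genes.

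All cells but the stem cell line ESD3 started as mouse embryonic fibroblasts (MEFs) from mid-gestation embryos that carry EGFP behind Oct4 through an internal ribosome entry site. The labels give no strain. In reprogramming, D0 were MEFs before induction and D3 were unsorted cells 3 days after retroviral Oct4, Sox2, Klf4 and c-Myc. D6T- and D9T- had lost the fibroblast surface protein Thy-1, D12S+ and D16S+ had gained the antigen SSEA-1, and these formed the successful route to iPSCs. The unsuccessful fractions of days 6, 9, 12 and 16 were D6T+ and D9T+ (Thy-1-positive) and D12S- and D16S- (SSEA-1-negative), and ESD3 was a mouse embryonic stem cell line. In transdifferentiation, MEF and D4 were cells on days 0 and 4 of retroviral Scl, Lmo2, Runx1 and Bmi1 (SLBR), and cKit+ and cKit- were the sorted end products of co-culture on OP9 stroma. H3K4me3 and H3K36me3 were profiled on the successful route from D0 to iPSCs only.

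Every group was a single library, so no difference could be set against replicate spread and no test was made. The score of a gene is the sum of the normalised tag counts, in tags per 10 M, of all peaks that touch the gene or the 1 kb on either side. Intervals are exact 95% intervals and cover counting error only. Depth ran from 18.7 to 41.2 M tags in the reprogramming H3.3 libraries, from 46.7 to 91.8 M in transdifferentiation, from 15.8 to 35.4 M for H3K4me3 and from 13.2 to 25.4 M for H3K36me3. The share of tags inside peaks differed far more, from 4.88% (D16S+) to 22.0% (D12S-) for reprogramming H3.3 and from 1.07% (D12S+) to 42.4% (D9T-) for H3K36me3. Changes are therefore also given relative to the median log2 ratio of all genes with a peak in both libraries. The marker genes followed the labels at the ends of the route: H3.3 peaks lay over 8 of 8 fibroblast markers in D0 and 3 of 8 in iPSCs, and over 4 of 8 pluripotency markers in D0, with a summed score of 75.5, and 8 of 8 in iPSCs, with 1331. Of all genes, 61.8% had an H3.3 peak in D0 and 61.1% in iPSCs. The hematopoietic markers did not follow the labels: 2 of 8 had an H3.3 peak in cKit+, 5 of 8 in cKit- and 4 of 8 in MEF. The shares over all genes were 33.2%, 31.8% and 53.2%.

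Promoter bases are shown for 4 genes: Smarca2 and Smarcd3, whose signal was lower in iPSCs, Smarcd1, whose summed H3.3 score was higher, and Actl6b, the neuronal gene. The scores below are sums over whole gene windows, and few H3.3 peaks reached within 1 kb of a first start site (9 of 134 in D0). The 250 bases before the first annotated start site of each are printed 5′ to 3′ on the gene's strand in build mm9, with CpG dinucleotides in capitals. The regions were chr19:26679400-26679649 (+) for Smarca2, chr5:24107831-24108080 (-) for Smarcd3, chr15:99532468-99532717 (+) for Smarcd1 and chr5:137994495-137994744 (+) for Actl6b.
Smarca2: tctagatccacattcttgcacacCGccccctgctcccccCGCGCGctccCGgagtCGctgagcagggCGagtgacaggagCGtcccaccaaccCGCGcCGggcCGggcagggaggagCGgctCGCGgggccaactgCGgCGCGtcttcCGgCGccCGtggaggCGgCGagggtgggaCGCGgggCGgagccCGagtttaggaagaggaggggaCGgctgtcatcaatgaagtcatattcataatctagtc
Smarcd3: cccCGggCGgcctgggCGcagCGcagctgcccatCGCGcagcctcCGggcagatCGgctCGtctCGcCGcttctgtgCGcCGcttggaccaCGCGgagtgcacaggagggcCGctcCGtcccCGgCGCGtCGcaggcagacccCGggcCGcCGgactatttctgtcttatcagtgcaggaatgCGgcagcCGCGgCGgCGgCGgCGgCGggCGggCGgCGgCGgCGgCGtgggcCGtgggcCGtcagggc
Smarcd1: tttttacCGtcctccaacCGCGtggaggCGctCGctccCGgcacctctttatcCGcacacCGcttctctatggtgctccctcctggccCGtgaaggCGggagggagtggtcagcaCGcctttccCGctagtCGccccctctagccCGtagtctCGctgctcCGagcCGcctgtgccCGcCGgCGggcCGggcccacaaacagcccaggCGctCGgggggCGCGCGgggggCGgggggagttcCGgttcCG
Actl6b: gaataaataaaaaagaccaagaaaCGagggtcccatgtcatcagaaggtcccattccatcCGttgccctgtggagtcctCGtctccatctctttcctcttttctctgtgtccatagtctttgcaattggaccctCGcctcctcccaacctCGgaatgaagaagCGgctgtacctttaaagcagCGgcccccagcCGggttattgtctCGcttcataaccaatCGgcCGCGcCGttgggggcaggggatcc

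The somatic and stem cell promoters were rich in CpG. In these 250 bases the somatic genes held between 28 (Smarca2) and 40 (Smarcc2, Smarcd3) CpG. The stem cell genes held between 18 (Arid1a) and 29 (Smarcd1), and Actl6b held 13. The median was 8 and the upper quartile 18 over 22375 promoters. The letters GGGCGG on either strand, the core of the GC box, were found in 7 of the 10 windows and in 39.6% of all promoters, and were absent from Smarcc2, Arid1b and Actl6b. The letters CCAAT on either strand were found in Actl6b alone, at 2 places, and in 35.0% of all promoters. TATAAA (12.3% of all promoters), TGANTCA (6.00%) and ATGCAAAT (1.62%), each searched on both strands, were in none of the 10 windows.

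Smarca2 encodes BRM, the ATPase of somatic BAF, and spans chr19:26679650-26852811 on the plus strand. Its H3.3 score was 108 in D0, 95.05 in D3, 241 and 273 in D6T- and D9T-, 39.4 and 8.0 in D12S+ and D16S+ and 12.3 in iPSCs. The ES cell line had 10.6. Along the successful route the score was highest in the Thy-1-negative cells of days 6 and 9, and it was low in D16S+, iPSCs and ESD3. Its rank per kb of window within a library moved less. It was at percentile 50.3 of all genes in D0, 67.0 in D9T-, 57.8 in D16S+, 40.7 in iPSCs and 49.6 in ESD3. Covered length went the same way as the score, from 7.06 kb in D0 to 17.0 kb in D9T- and 1 kb in iPSCs. The mean score per covered kb was 15.3 in D0 and 12.3 in iPSCs. From D0 to iPSCs the log2 ratio was -3.13 (95% counting interval -3.58 to -2.68), an 8.78-fold lower score. All genes had a median of -0.53, so the relative change of Smarca2 was -2.60. As in any bulk sample, signal from fewer cells and less signal per cell cannot be told apart. From D0 to D9T- its relative change was 1.56.

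The other marks over Smarca2 were also low in iPSCs. Its H3K4me3 score was 639 in D0, 504 in D3, 815 and 611 in D6T- and D9T-, 154 and 20.9 in D12S+ and D16S+ and 91.8 in iPSCs. The log2 ratio of iPSCs to D0 was -2.80 (-2.97 to -2.63) and the relative change -1.42. Its H3K36me3 score was 425 in D0, 157 in D3, 88.0 and 1678 in D6T- and D9T- and 13.5 in D12S+, and no peak was called in D16S+ or iPSCs. The D9T- score covered 85.2 kb and stood 1.39 above D0 on the relative log2 scale. D9T- was also the library with the largest share of tags in H3K36me3 peaks, 42.4%, and the part of that share in this gene's height beyond the all-gene shift was not tested.

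Smarca2 has annotated start sites in 2 places, at its 5′ end and 143 to 147 kb inside the gene, and both lost marks along the route. At the 5′ start, H3K4me3 was 449 (425 to 474) in D0, 103 in D12S+, 20.9 in D16S+ and 91.8 (82.1 to 102) in iPSCs. At the inner start it was 190 (175 to 207) in D0, 235 and 213 in D6T- and D9T- and 44.0 in D12S+, and no peak was called in D16S+ or iPSCs. H3.3 at the inner start was 42.3 in D0, 76.9 and 60.9 in D6T- and D9T-, 17.1 and 8.0 in D12S+ and D16S+, and no peak was called in iPSCs or ESD3. At the 5′ start H3.3 was 53.4 in D0, 62.9 in D6T- and 55.3 in D9T-, had no peak in D12S+ and D16S+, and was 5.35 in iPSCs. In iPSCs, then, the 5′ promoter kept an H3K4me3 peak and the inner one had neither mark.

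**Figure D1:**
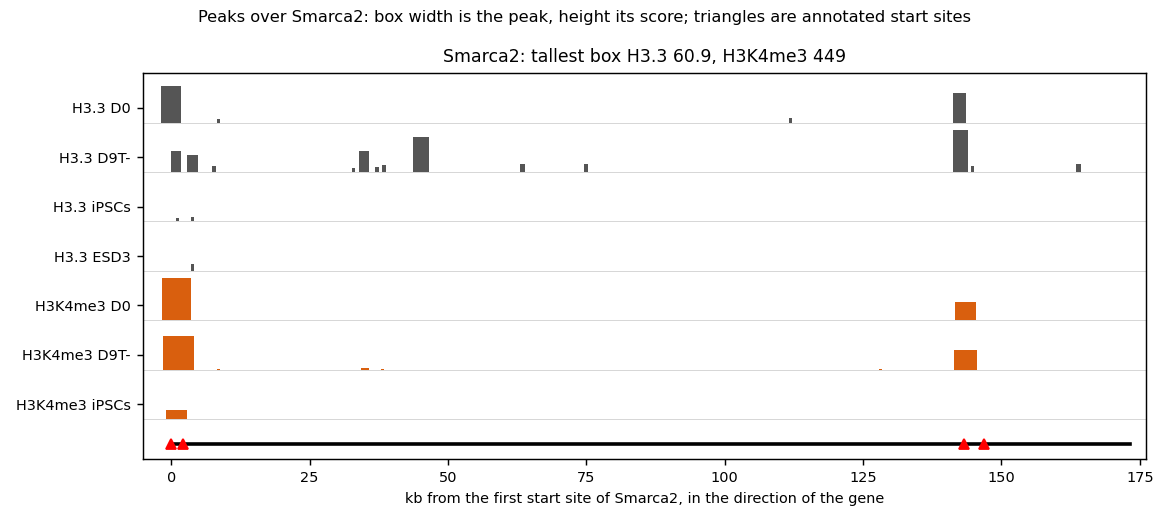
Peaks over Smarca2 by distance in kb from its first start site, for H3.3 (grey) and H3K4me3 (orange). Box width is the peak and box height its score, scaled to the tallest box of each mark (60.9 for H3.3, 449 for H3K4me3), and red triangles are annotated start sites. The boxes about 143 kb into the gene are present in D0 and D9T- and missing in iPSCs and ESD3.

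Smarcd3, the somatic member of the subunits that link BAF to transcription factors and best known from heart and muscle, spans chr5:24096636-24107830 on the minus strand. Its H3.3 score was 184 in D0, 125 in D3, 170 and 90.6 in D6T- and D9T-, 50.9 and 13.9 in D12S+ and D16S+ and 7.77 in iPSCs, and 12.5 in ESD3. It was highest at the start of the route and lowest at its end. The covered length was 13.3 kb in D0 and 0.781 kb in iPSCs. The log2 ratio of iPSCs to D0 was -4.56 (-5.13 to -4.05), a 23.6-fold lower score, and the relative change was -4.03, below all but 2.83% of genes with a peak in either library. The H3.3 peak over the start site (45.3 in D0) was absent in iPSCs and ESD3.

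H3K4me3 over Smarcd3 was 686 in D0 and 174 in D3, and 74.6 in iPSCs. Its log2 ratio was -3.20 (-3.39 to -3.01) and the relative change -1.82, but its size depended on how wide peaks at the edges of the gene were counted. The D0 value includes a peak of 294 that lies mainly at the start of Chpf2, a gene on the opposite strand at chr5:24092559-24100213, and only its edge reaches the window. At the own start site of Smarcd3 the score was 275 in D0 and 42.2 in iPSCs, 6.53-fold lower, with a relative change of -1.26. With each score split by the share of the peak inside the window, the log2 ratio was -1.75 against an all-gene median of -1.34. With peaks counted by their midpoint it was -0.64 against -1.38, since both large D0 peaks, of 294 and 275, then fell outside the window and the iPSC peak of 42.2 did not. The H3K36me3 score of this short gene was 87.7 in D0 and 93.2 in D9T-, or 6.65 and 7.06 per kb of window (percentiles 74.4 and 68.5 of all genes), against 2.43 per kb over Smarca2 in D0. Only 45.4 of the D0 score and 44.7 of the D9T- score came from peaks centred inside the window. The H3K36me3 score was 6.5 in D6T- and 6.8 in iPSCs, with no peak in D3, D12S+ and D16S+.

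Smarcd1, the stem cell counterpart of Smarcd3, spans chr15:99532718-99544426 on the plus strand. Its H3.3 score was 96.3 in D0, 43.0 in D3, 111 and 102 in D6T- and D9T-, 68.2 and 39.8 in D12S+ and D16S+ and 135 in iPSCs, and 136 in ESD3. Of the 9 members with a peak in both, it was the one with a higher H3.3 score in iPSCs than in D0 by more than counting error, from 6.77 to 10.1 covered kb, with a log2 ratio of 0.48 (0.27 to 0.70) and a relative change of 1.01. Without the 1 kb flanks, or with peaks counted by their midpoint, its log2 ratio was 0.16, inside a counting interval of 0.22 to either side. With split scores, equal numbers of peaks or scaling to the tags inside peaks, Actl6a was also higher, by 0.41, 0.50 and 0.45. Within ESD3 the H3.3 score of Smarcd1 per kb of window ranked at percentile 98.3 of all genes, against 85.2 in D0. The H3K4me3 score was 136 in D0 and 122 in iPSCs (log2 ratio -0.16, -0.36 to 0.04), 1.23 above the all-gene median. The H3K4me3 peak at its start site was 2.42 kb long in D0 and 5.10 kb in iPSCs. The gene overlaps Gm17349 and Gm17241, whose reads cannot be told apart from its own.

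**Figure D2:**
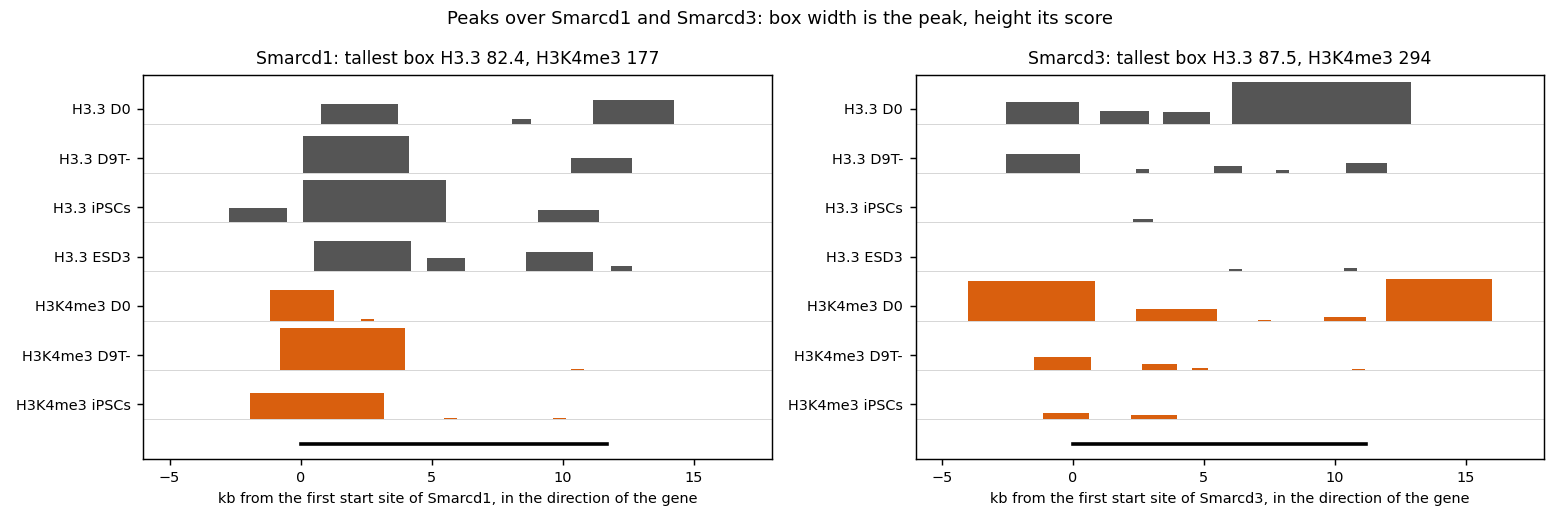
Peaks over Smarcd1 (left) and Smarcd3 (right) by distance in kb from the start site, for H3.3 (grey) and H3K4me3 (orange). Box width is the peak and box height its score, scaled within a gene and mark, and the black line is the gene. Smarcd1 keeps wide boxes in iPSCs and ESD3, while Smarcd3 has a single H3.3 box of 7.77 in iPSCs, and its rightmost H3K4me3 box in D0 (294) lies mainly at Chpf2.

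The other somatic subunits showed smaller differences in H3.3. Arid1b, the somatic DNA-binding ARID subunit, spans chr17:4994332-5347656 (+), and its H3.3 score was 557 in D0, 612 in D9T-, 36.6 in D16S+, 232 in iPSCs and 179 in ESD3. It covered 41.1 kb in D0 and 20.2 kb in iPSCs, and the log2 ratio was -1.26 (-1.38 to -1.14), a relative change of -0.73. Its H3K4me3 was 676 in D0 and 191 in iPSCs (relative change -0.44), and its H3K36me3 291 and 6.59 (relative change -2.28). Smarcc2, a scaffold subunit at chr10:127896292-127927229 (+), had an H3.3 score of 250 in D0 and 133 in iPSCs, over 14.1 and 9.75 kb, a log2 ratio of -0.91 (-1.07 to -0.74) and a relative change of -0.38. ESD3 had 132. Its H3K4me3 sum, 693 in D0 and 278 in iPSCs, was mostly a peak of 436 in D0 and 175 in iPSCs centred beyond its end, at Myl6 (chr10:127927916-127930931), and at its own start site the score was 257 and 81.8. Its H3K36me3 score was 662 in D0 and 30.9 in iPSCs, a relative change of -1.23. For this mark the relative change of Smarcd3 was -0.50, from 87.7 in D0 to 6.8 in iPSCs. The lowest peak score of that iPSC library was 5.15, so the low D0 score of Smarcd3 limited how far it could fall. The sizes of these changes can therefore not be ranked against it. The large H3.3 peak at the end of Smarcc2, 168 in D0 and 42.0 in iPSCs, reaches the same neighbour.

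Among the other stem cell subunits, Smarcc1 and Arid1a had H3.3 changes nearest the all-gene median, with Actl6a above it and Smarca4 below it by about the same amount. Arid1a, the ARID subunit most often mutated in tumours, spans chr4:133234923-133312684 (-) and had an H3.3 score of 779 in D0, 735 in D9T-, 203 in D16S+, 577 in iPSCs and 286 in ESD3. It covered 52.1 kb in D0 and 46.3 kb in iPSCs, the log2 ratio was -0.43 (-0.52 to -0.35) and its relative change 0.10. Actl6a, the actin-like subunit of dividing progenitors at chr3:32607468-32625890 (+), had 108 in both D0 and iPSCs (log2 ratio -0.0023, -0.22 to 0.22, relative change 0.53), in 8.21 and 8.50 kb, with 34.2 in D12S+ and 41.9 in D16S+. It overlaps Mrpl47. Smarca4, at chr9:21420613-21508674 (+), was at 405 in D0, 413 and 154 in D6T- and D9T-, 20.5 in D16S+ and 192 in iPSCs, over 30.0 kb in D0 and 15.1 kb in iPSCs, a log2 ratio of -1.08 (-1.21 to -0.94) and a relative change of -0.54. Smarcc1, the scaffold paralog of Smarcc2 at chr9:110034541-110142682 (+), was at 487 in D0, 852 in D6T-, 107 in D16S+ and 326 in iPSCs, over 34.6 kb in D0 and 26.9 kb in iPSCs, a log2 ratio of -0.58 (-0.69 to -0.47) and a relative change of -0.04.

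H3K4me3 over these 4 genes was lower in iPSCs than in D0, by less than the median gene except at Smarca4, and scaled to the tags inside peaks it was higher over Arid1a (log2 0.25), Actl6a (0.52) and Smarcc1 (0.46). The scores were 645 and 321 for Arid1a, 204 and 122 for Actl6a, 217 and 125 for Smarcc1, and 292 and 102 for Smarca4. Their relative changes were 0.38, 0.64, 0.59 and -0.14, with the all-gene median at -1.38. Per kb of window, the H3K36me3 level in D0 was highest over Actl6a (22.9), Smarcc2 (20.1), Smarcc1 (19.8) and Smarca4 (17.9). The summed score of Smarcc1 was 2179 in D0, over 99.4 kb, and 84.7 in iPSCs, over 5.58 kb. That of Smarca4 was 1609 over 71.3 kb and 122 over 9.02 kb. The all-gene median of H3K36me3 was -3.19, and the relative changes were -1.50 for Smarcc1 and -0.53 for Smarca4.

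Taking the classes as groups, the median log2 ratio of H3.3 from D0 to iPSCs was -0.43 over the 5 stem cell genes and -2.20 over the 4 somatic genes, against -0.52 over the 15815 genes with a peak in either library. For H3K4me3 the medians were -0.79 and -2.31, against -1.37 over 16379 genes. For H3K36me3 they were -3.48 and -4.94, against -3.21 over 11804 genes, with the lowest peak score of the library standing in for Smarca2 in iPSCs. The somatic median was thus below the stem cell median for each mark, by 1.76, 1.52 and 1.46 on the log2 scale. Between D0 and MEF, 2 libraries of uninduced fibroblasts, the H3.3 medians were -2.57 over the stem cell genes and -0.74 over the somatic genes, a class difference of about the same size in the opposite direction. Scaled to the tags inside peaks, the stem cell medians of H3.3 and H3K4me3 turned to 0.017 and 0.46, while the somatic medians stayed negative at -1.75 and -1.06. With only peaks at least 4-fold over input, the H3.3 gap turned to 1.09, and 2 of 5 stem cell and 3 of 4 somatic genes then had a peak in iPSCs. The H3.3 gap rested on Smarca2 and Smarcd3, while Arid1b (-1.26) and Smarcc2 (-0.91) lay on either side of Smarca4 (-1.08).

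**Figure D3:**
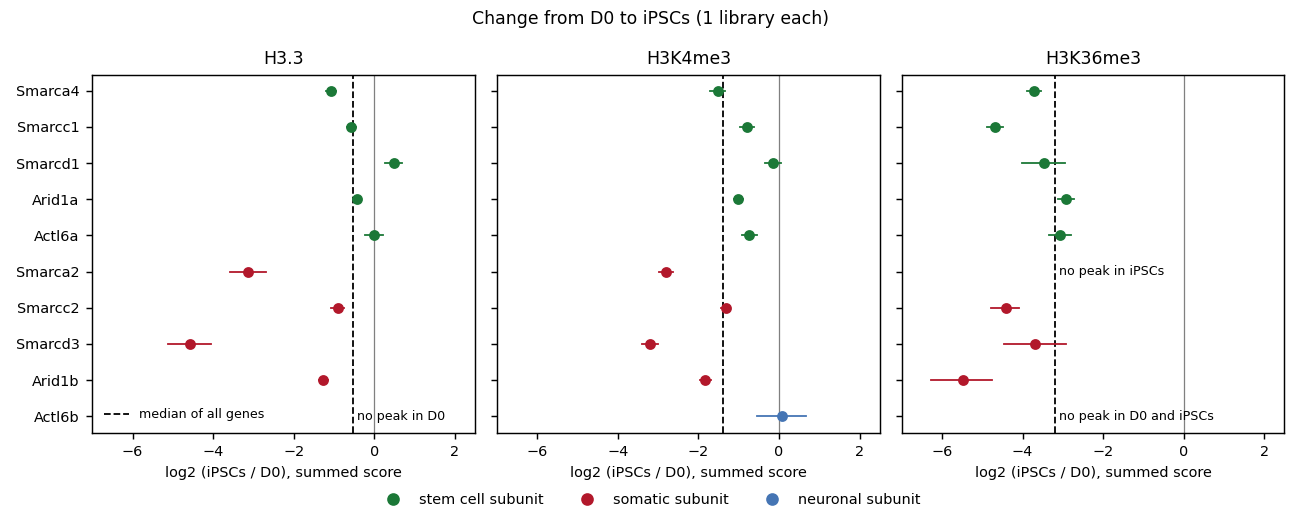
Log2 ratio of iPSCs to D0 of the summed score of each gene for H3.3, H3K4me3 and H3K36me3, with 1 library per stage. Points are genes coloured by class, bars are 95% counting intervals, and the dashed line is the median of all genes with a peak in both libraries (-0.53, -1.38 and -3.19). Smarca2 and Smarcd3 lie furthest to the left of the dashed line for H3.3 and H3K4me3.

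Counted at a 2-fold difference, 4 of the 10 genes had a lower H3.3 score in iPSCs (Smarca2, Smarcd3, Arid1b and Smarca4), where 38.6% of all genes did. The single gene counted as 2-fold higher was Actl6b, which had no peak in D0, and 20.7% of all genes were higher. Relative to the all-gene shift, 2 were lower (Smarca2 and Smarcd3), against 29.0% of genes, and 2 were higher (Smarcd1 and Actl6b), against 28.9%. For H3K4me3, 6 of 10 were lower, against 70.1%, and none was higher, against 3.86%. Relative to the shift, Smarca2 and Smarcd3 were lower, against 11.4% of genes, and Smarcd1 and Actl6b higher, against 12.8%. For H3K36me3, 9 of 9 genes with a peak were lower, against 84.4%, and none higher, against 3.26%. Relative to the shift, 4 were lower (Smarca2, Arid1b, Smarcc1 and Smarcc2) and none higher, against 30.2% of genes in each direction. For H3.3 and H3K4me3 each count lay within about 1 gene of the background share. For H3K36me3 relative to the shift, none of 9 was higher where 30.2% of all genes were. That share includes genes with low D0 scores, which could not fall by the full shift because the lowest iPSC peak score was 5.15. A share over genes with D0 scores like those of the members was not computed. The H3.3 difference of Smarcd1 relative to the shift fell under 2-fold without the flanks, by midpoint and by covered kb. That of H3K4me3 fell under 2-fold for Smarcd3 with split scores and by midpoint, and for Smarca2 at its 5′ start alone and by covered kb.

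A second library of uninduced fibroblasts shows how far 2 libraries of like cells can lie apart. Between D0 and MEF, which came from different experiments and differ in depth, the relative change ran from -1.83 for Smarca4 to 1.20 for Smarca2. The H3.3 scores were 405 and 43.7 for Smarca4, 487 and 63.5 for Smarcc1, and 108 and 94.8 for Smarca2. Of the changes from D0 to iPSCs, those of Smarca2 (-2.60) and Smarcd3 (-4.03) were larger than any of these gaps. With MEF as the start, the log2 ratio was -2.95 for Smarca2 and -4.10 for Smarcd3, while Smarca4 turned to 2.14 and the stem cell median to 2.14, against an all-gene median of 0.88. Smarcc1 turned to 2.36, Arid1a to 0.68 and Smarcc2 to 0.10, and Actl6a, near 0 from D0, was at 1.91. The signs of these ratios therefore rest on which fibroblast library is used. So does the median of genes with a peak in both libraries, at -0.53 from D0 and 0.80 from MEF. Against that median, Smarcc2 stayed below and Actl6a above from either start, while Smarca4, Smarcc1 and Arid1a changed sides.

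**Figure D4:**
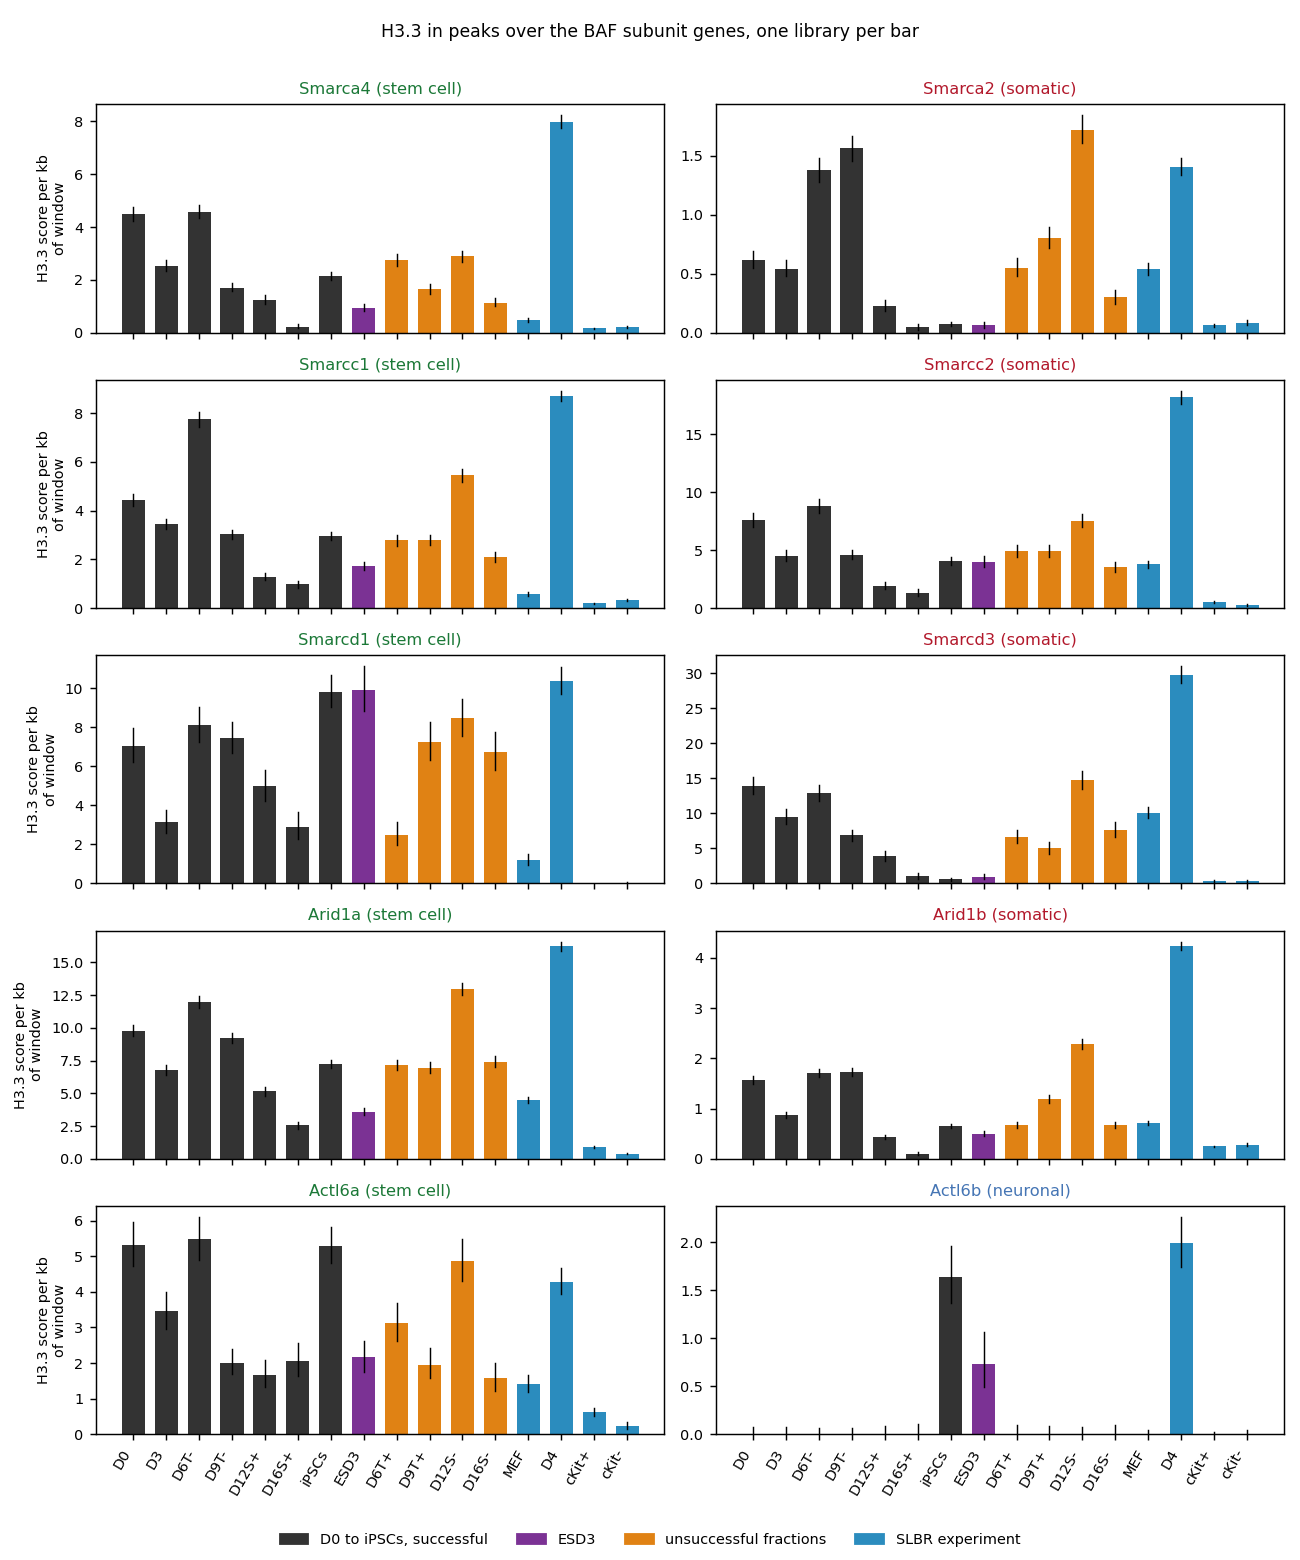
H3.3 score per kb of window for each of the 10 genes (stem cell subunits left, somatic and neuronal right) in the 16 libraries, 1 bar each, with 95% counting intervals as black lines. Vertical scales differ between genes, and the SLBR libraries are scaled to the same 10 M tags but differ in enrichment. Smarca2 and Smarcd3 are near 0 in D16S+, iPSCs and ESD3, every gene is low in cKit+ and cKit-, and Actl6b has a bar in iPSCs, ESD3 and D4 alone.

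Actl6b, at chr5:137994745-138010810 (+), encodes the neuronal actin-like subunit, and the cells studied here were not neurons. No H3.3 peak was called in 13 of 16 libraries. The score was 29.6 in iPSCs, 13.2 in ESD3 and 36 in D4, where the only peak was centred outside the window. In iPSCs the larger of its 2 peaks (21.5) runs past the end of the gene towards Trfr2, and the smaller (8.14) and the ESD3 peak (13.2) lie in introns, 14.1 to 15.5 kb from the start. None lies at the start site. A small H3K4me3 peak did lie at the start site, with 14.4 in D0, 6.74 in D3, 7.62 and 7.18 in D6T- and D9T- and 15.1 in iPSCs, and none in D12S+ and D16S+. No H3K36me3 peak was called in any of the 7 libraries.

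Compared per kb of window within a library, Smarcd3 had the highest H3.3 level of the 10 genes in D0 (13.9 per kb, percentile 93.5 of all genes), followed by Arid1a (9.77), Smarcc2 (7.59) and Smarcd1 (7.02), with the intervals of the last 2 overlapping. Smarca2 was the lowest with a peak, at 0.615. In iPSCs Smarcd1 led (9.81, percentile 93.9), followed by Arid1a (7.24), Actl6a (5.30) and Smarcc2 (4.04), and Smarcd3 was at 0.589 and Smarca2 at 0.0700. Arid1a kept nearly the same rank in all 12 reprogramming libraries, between percentiles 89.2 and 92.1. The H3.3 rank of Smarcd3 moved most among the genes with a peak in every library, between 53.9 and 93.5.

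**Figure D5:**
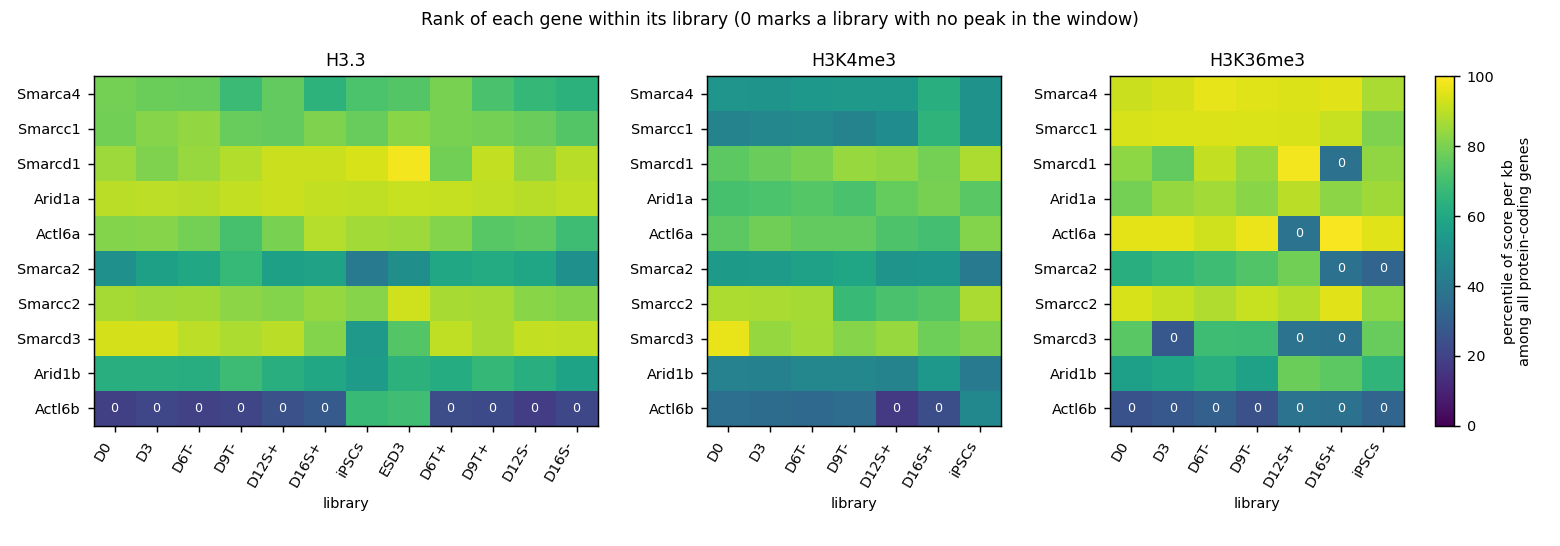
Percentile of each gene's score per kb among all protein-coding genes of the library (colour, 0 to 100) for H3.3, H3K4me3 and H3K36me3. Rows are the 10 genes, columns the reprogramming libraries, and a 0 marks no peak in the window, where the percentile is the midpoint of all genes without a peak. Arid1a stays between 89.2 and 92.1 for H3.3, and Smarcd3 is at 53.9 in iPSCs.

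H3.3 peaks of the 10 genes lay mostly inside introns, 108 of 134 in D0 and 76 of 106 in iPSCs, and 9 and 14 reached within 1 kb of the first start site. The overlap with the other marks differed between members. In D0, 94.1% of the H3.3-covered bases of Actl6a, 82.0% of Smarcc1 and 81.3% of Smarcc2 lay in H3K36me3 peaks, while in Smarca2 76.8% lay in H3K4me3 peaks and none in H3K36me3 peaks, and in Arid1b 18.6% and 3.66%. In iPSCs the share in H3K36me3 peaks was at most 22.5% (Actl6a), in a library where few bases carried such peaks. Of the H3.3 bases of Smarcd1, 19.0% were in H3K4me3 peaks in D0 and 50.3% in iPSCs.

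The sorted fractions of the same day give the 2 routes side by side. Smarca2 had an H3.3 score of 241 in D6T- and 96.6 in D6T+, 273 and 141 in D9T- and D9T+, 39.4 and 301 in D12S+ and D12S-, and 8.0 and 52.1 in D16S+ and D16S-. The relative log2 difference, successful over unsuccessful, was 0.41, 0.65, -1.20 and -1.26, so the successful cells were higher on days 6 and 9 and lower on days 12 and 16. The all-gene shift had the same signs, 0.91, 0.31, -1.74 and -1.44. For Smarcd3 the relative differences were 0.05, 0.14, -0.20 and -1.41, and for Arid1b 0.42, 0.24, -0.67 and -1.27. Smarcc2, the remaining somatic gene, did not share this pattern and was relatively higher on 1 of 4 days and lower on 3. Smarcd1 had 0.80, -0.27, 0.97 and 0.23, higher on 3 of 4 days. Smarca4 was lower on 3 of 4 days, at -0.17, -0.26, 0.53 and -0.88. With 4 pairs a two-sided sign test could not reach 0.05. On day 16 the D16S+ library had the lowest share of tags in peaks, 4.88%, and no part of it in these differences was tested.

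Between iPSCs and ESD3 the all-gene median was -0.93, and the members lay on either side of it. The log2 ratio of ESD3 to iPSCs was 0.01 (-0.19 to 0.22) for Smarcd1, -0.02 (-0.23 to 0.19) for Smarcc2 and -0.21 (-0.998 to 0.52) for Smarca2, and 0.68 (-0.11 to 1.47) for Smarcd3. Their scores were thus within counting error of each other, while their relative changes were 0.95, 0.91, 0.72 and 1.62. It was -1.17 for Smarca4, -1.01 for Arid1a and -1.29 for Actl6a, with relative changes of -0.24, -0.08 and -0.36. Both pluripotent libraries held low H3.3 scores over Smarca2 and Smarcd3.

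In transdifferentiation, H3.3 scores were lower in both sorted end products than in MEF over somatic and stem cell genes. In cKit+ 9 of 9 members with a peak were at least 2-fold lower, as were 8474 of 12940 genes. The all-gene median was -1.71 for cKit+ and -1.23 for cKit-. Relative to it the stem cell median was 0.085 in cKit+ and -0.74 in cKit-, and the somatic median -1.28 and -2.11. Within cKit+ the score per kb of window ranked at percentile 82.6 for Smarcd3, 75.3 for Smarca4 and 69.7 for Smarca2. Smarcd3 was at 133 in MEF, 393 in D4, 4.25 in cKit+ and 4.85 in cKit-, and Smarca2 at 94.8, 246, 10.8 and 14.6. The log2 ratio of cKit+ to MEF was -4.97 (-5.47 to -4.50) for Smarcd3, a relative change of -3.26, and -3.13 (-3.46 to -2.82) for Smarca2, a relative change of -1.43. Smarcd1 had 16.3 in MEF and 142 in D4, and no peak in cKit+ or cKit-. Smarca4 was at 43.7, 720, 14.2 and 19.3, and Arid1a at 360, 1295, 70.5 and 31.3. All 10 genes were at least 2-fold higher in D4, as were 91.3% of all genes, and the all-gene median was 2.61. Actl6b counted here through a D4 peak centred outside its window, with no peak in MEF. Relative to the all-gene median of 2.61, 2 were higher and 3 lower in D4, against 24.4% and 19.0% of all genes. D4 had 37.2% of its tags in peaks and cKit+ 1.65%, and the part of this in the values was not tested.

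Of 20 other BAF and PBAF subunit genes, 19 were found in the annotation and all 19 had an H3.3 peak in D0 or iPSCs. From D0 to iPSCs 6 were at least 2-fold lower and 2 higher, against 38.6% and 20.7% of all genes, with a median log2 ratio of -0.35, or 0.18 relative to all genes. Relative to the all-gene shift 5 were lower and 5 higher, against 29.0% and 28.9% of all genes. The lowest ratios were those of Bcl11b, a zinc-finger subunit (90.8 in D0 and 5.95 in iPSCs, log2 -3.93), and of Brd7, a bromodomain subunit of PBAF (208 and 18.01, log2 -3.53). The higher ones were Bcl7b (95.5 and 196, log2 1.04) and Brd9, a bromodomain subunit of the non-canonical complex, which had no peak in D0 and 31.5 in iPSCs. For H3K4me3, 11 of 19 were lower and 1 higher, against 70.1% and 3.86% of all genes. Relative to the shift none was lower and 1 higher, against 11.4% and 12.8%. For H3K36me3, 15 of 16 were lower and none higher, against 84.4% and 3.26%. Relative to the shift 5 were lower and 1 higher, against 30.2% of all genes in each direction.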

How the data were processed

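H3.3, H3K4me3 and H3K36me3 ChIP-Seq peak lists of 30 libraries were used, and the 16 input libraries entered only through the authors' peak calls. Per the study's methods, reads were mapped to mm9 with STAR, reads at several loci were removed, and peaks were called for each library with HOMER in histone style (versions not given in the sources used here). The submitters' processing notes name the same tools and build. The normalised tag count is a signal, put by the authors on a scale of 10 M tags for each library, without division by peak length or subtraction of input. The deposited enrichment of a peak over its input is a ratio, at least 2 for H3.3 and 4 for the other marks, and the deposited p-value of each peak is a Poisson value with a limit of 0.0001. It was used in no test here.

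Peaks touching each of 22380 protein-coding genes of GENCODE vM1, extended by 1 kb on either side, were summed as score and covered kb, so a peak can count for more than 1 gene. A peak counted at the first or own start site of a gene if it reached within 1 kb of it. Tag counts for the intervals were recovered from the score and the library total, and the number of tags limits the precision, from 13.2 to 91.8 M a library. Ratios carry exact conditional binomial intervals and levels exact Poisson ones, at 95%. A gene counted as higher or lower at 2-fold, among genes with a peak in either library. A missing peak was set to the lowest score of the library for counts and medians, and no fold is given for it. Relative changes subtract the median log2 ratio of genes with a peak in both libraries. Sums were tested on simulated peaks. All 10 members were named by rule, and of the other subunits at most 2 each way with the largest H3.3 difference. Gltscr1l was not matched to the annotation and Spi1 and Map2 were matched by their RefSeq synonyms. Promoter bases were read from the mm9 genome. Members and lists were chosen with earlier results of these data known. Python 3.11.15, numpy 2.4.6 and scipy 1.17.1 were used.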

Additional observations from a re-analysis of the deposited data

How the results depend on the processing

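Every group had 1 library, so no replicate could be left out. No paired analysis was possible because no group has a replicate number and no result comes from a test. Fractions of the same day were only set side by side. Values are median log2 changes from D0 to iPSCs, and the gap is the somatic minus the stem cell median. The somatic median stayed below the stem cell median under every setting but 1 for all 3 marks. With a stricter fold over input (4 for H3.3, 8 for the others), the H3.3 gap turned to 1.09, with medians of -4.46 (stem cell) and -3.37 (somatic), where 2 of 5 stem cell and 3 of 4 somatic genes kept a peak in iPSCs and the rest stood at the lowest score. Then H3K4me3 had -4.72, -4.95 and a gap of -0.24, and H3K36me3 -0.28 and -1.27, from 1 stem cell and 2 somatic genes with a peak in D0. Without the 1 kb flanks the H3.3 stem cell median was -0.20, the H3K4me3 somatic median -2.57 and its gap -1.77. With scores split by the share inside the window these were -0.30, -1.78 and -1.05, and by peak midpoint -0.20, -1.57 and -0.77. With equal numbers of top-scoring peaks (34062 for H3.3, 19633 for H3K4me3, 12322 for H3K36me3), the stem cell medians were -1.03 for H3K4me3 and -3.70 for H3K36me3, the H3K36me3 somatic median -4.07 and its gap -0.37. Relative to tags inside peaks, the stem cell and somatic medians were 0.017 and -1.75 (H3.3), 0.46 and -1.06 (H3K4me3), and -0.037 and -1.50 (H3K36me3). There H3K4me3 of Arid1a turned to 0.25, of Smarcc1 to 0.46 and of Actl6a to 0.52, and H3K36me3 of Arid1a to 0.53 and of Actl6a to 0.38. By covered kb the stem cell medians were -0.17, -0.016 and -2.98, the H3K4me3 somatic median -1.19 and its gap -1.17, and for H3K4me3 Smarcc2 turned to 0.076, Actl6a to 0.69 and Smarcd1 to 1.06. Added after seeing the data, the own start site alone gave an H3K4me3 gap of -1.20, and MEF in place of D0 gave H3.3 medians of 2.14 and -1.53, a gap of -3.67, 2.14 for Smarca4, 2.36 for Smarcc1, 1.91 for Actl6a, 0.68 for Arid1a and 0.10 for Smarcc2. Apart from these, 33 recomputed class medians and gaps stayed within the main value's counting interval. Of 27 gene values, 15 kept their direction under all alternatives that gave one. The cause of these moves was not tested, except that the stricter fold leaves fewer peaks.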
